A study of Mus musculus with 24 samples.

Results

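The livers of 4 Ppara KO mice and 4 control mice were compared by RNA-seq after a fast of 24 h. These 8 libraries are 8 of the 24 in the series and were chosen by their genotype labels, and all genes of the count table were examined. All mice were C57BL/6 males of 8 to 10 weeks. The labels call the control mice wild type, whereas the study's methods describe Tsc1 f/f; Cpt2 f/f littermates as controls. The labels give the Ppara genotype as PPAR-a KO, without the allele, the cells that lost the gene or the source of the line. The Ppara KO and Cpt2L-/- Ppara KO libraries are not described in the study's text. A further 8 libraries, 4 from Cpt2L-/- mice and 4 from Cpt2L-/- Ppara KO mice of the same sex, age and fast, were used for a second comparison of livers with and without Ppara. Cpt2L-/- mice are described as lacking Cpt2, a mitochondrial enzyme needed to oxidize long-chain fatty acids, in hepatocytes through Albumin-Cre.

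Pparα is a nuclear receptor that binds fatty acids and related lipids and acts with its partner Rxrα. In hepatocytes it is best known for turning on the genes of fatty acid oxidation and ketone body production during fasting. It binds DNA at a pair of half-sites that lie in the same direction with a single base between them, called a direct repeat 1 or PPAR response element.

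Total counts were 17066401 to 18657651 in control libraries and 15021749 to 20371204 in Ppara KO libraries. Levels are given as CPM, counts divided by library size after TMM scaling of the 24 libraries, and in the order of replicates 1 to 4 where 4 values are listed. Differences are log2 fold changes from the quasi-likelihood test of edgeR on the 8 libraries, with p-values adjusted by the Benjamini-Hochberg method over all 12955 genes tested. A gene was called when its adjusted p was under 0.05. Nothing in the labels says how the replicates were collected, so p-values measure the spread between these libraries. Because whole liver was sequenced, fewer cells of a type and less RNA per cell cannot be told apart.

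Ppara itself (ENSMUSG00000022383, GRCm38 chromosome 15, 85734983 to 85802819, plus strand) was examined first. Its level was 213, 260, 274 and 276 CPM in control livers and 45.2, 13, 13 and 38.1 CPM in Ppara KO livers. The groups did not overlap, but reads on the gene were still present in each KO library, most in replicates 1 and 4. The level fell 9.41-fold (log2 fold change −3.23, SE 0.41, adjusted p = 0.000586), and without Ppara KO replicate 1 the log2 fold change was −3.57. The counts are summed over the gene, so which exons the remaining reads cover was not tested. Nnt, a mitochondrial transhydrogenase that carries a deletion in part of the C57BL/6 substrains, was at 183 to 220 CPM in control livers and 17.8 to 49.0 CPM in Ppara KO livers. It was called lower (log2 fold change −2.73, SE 0.28, adjusted p = 0.000182). Counts summed over the gene do not show whether some exons are missing, so reads above 0 are no check of the deletion. Whether the groups differ in substrain was not tested.

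Several libraries stood apart from their group. In rank correlations of log2 CPM over the genes tested, Ppara KO replicate 1 was closest to replicate 4 of Cpt2L-/- Ppara KO (Spearman 0.984) and less close to the other Ppara KO libraries (0.947 to 0.965). Control libraries correlated with each other at 0.976 to 0.986. Control replicates 1 and 2 were closest to each other (0.984), as were 3 and 4 (0.986). Summed levels of genes of amino acid catabolism and the urea cycle were 66400, 69300, 37700 and 42700 CPM in control replicates 1 to 4. Those of mitochondrial fatty acid oxidation genes did not split this way (9970, 11800, 11300 and 11100 CPM). Whether the control pairs were collected apart was not tested. On the first principal component of the 8 libraries, which held 55.7% of the variance, control libraries lay at −54.3 to −45.1, Ppara KO replicate 1 at 20.6 and the other Ppara KO libraries at 40.4 to 68.8. Ppara KO replicates 2 and 3 lay next to each other, and replicate 4 lay farthest from them on the second component, which held 18.3%. Replicates 2 and 4 correlated with their own group at 0.935 to 0.986 and 0.935 to 0.965. The count of called genes rose from 3559 to 4177 without Ppara KO replicate 1 and to 4011 without replicate 4. Since replicate 1 was closest to a library of another genotype, the comparison was also fitted without it, and those counts are given for the main lists. Whether this library carries its labelled genotype in full was not tested, and every value that includes it has this limit. The library labelled Cpt2L-/- Ppara KO replicate 1 also stood apart, with a Spearman correlation of 0.926 to 0.959 to its own group. Cpt2 was at 126, 39.1, 31.7 and 37.4 CPM in the 4 libraries of that group, at 93.2, 105, 80.3 and 90.6 CPM in Cpt2L-/- livers and at 87.8 to 104 CPM in control livers. Cpt2 counts in Cpt2L-/- livers thus overlapped those of controls, and being summed over the gene they are no check of the deletion. Whether replicate 1 carries its labelled genotype was not tested, and it enters each value of the Cpt2L-/- background and each interaction unless stated. Replicate 4 of Cpt2L-/- Ppara KO was closest to Ppara KO replicate 1 (Spearman 0.984), just above its own group (0.926 to 0.983). It enters the same values, and its labelled genotype was not tested either.

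**Figure D1:**
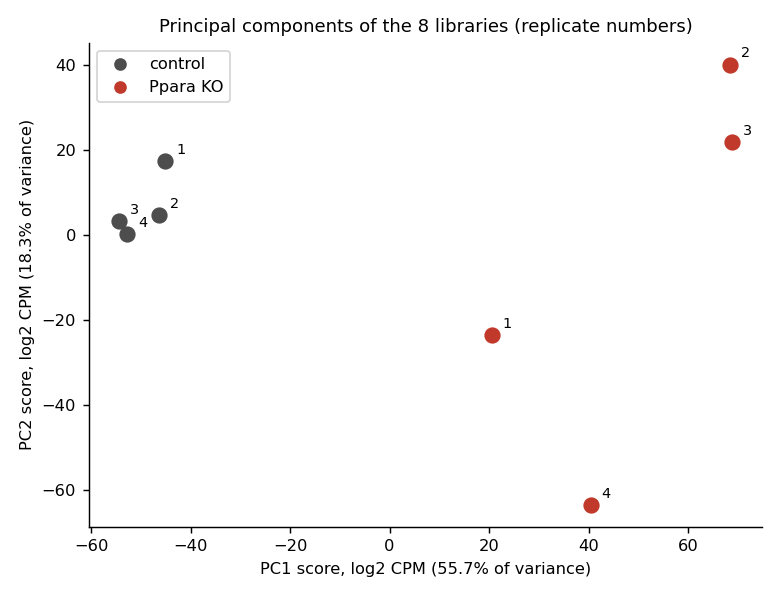
Principal component scores of the 8 libraries, from log2 CPM of the genes tested; each point is 1 library, labelled with its replicate number, and the axes give the share of variance. Control libraries lie between −54.3 and −45.1 on the first component and Ppara KO libraries between 20.6 and 68.8.

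Of 12955 genes tested, 3559 (27.5%) were called, 1915 (14.8%) higher and 1644 (12.7%) lower in Ppara KO livers. Of these, 880 rose and 920 fell by at least 1 on the log2 scale. The 4 KO and 4 control libraries did not overlap for 3136 called genes (24.2% of those tested). The median log2 fold change of all genes tested was 0.017. Without Ppara KO replicate 1, 2262 genes were higher and 1915 lower of 13189 tested, and 3331 genes were called in the same direction both with and without it. Without control replicate 4 the count was 2321. In a search made after the values were seen, 9 genes were at least 8-fold lower, with no overlap, in all 12 Ppara KO, Cpt2L-/- and Cpt2L-/- Ppara KO libraries than in the other 12 libraries of the series, and 0 genes were higher. Cd1d2, at 18.9 to 60.7 CPM in control livers and 0.320 to 0.828 CPM in Ppara KO livers, and the Rps3a3 locus, a ribosomal protein gene copy at 41.5 to 91.9 and 0.206 to 1.03 CPM, were among them. Differences of line or of collection therefore cannot be told apart from the loss of Ppara in this comparison.

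The entry of fatty acids into mitochondria and their oxidation had the highest share of called genes among the lists with more than 2 genes tested. Of 27 listed genes of this pathway, 26 were tested, 24 were called lower and 0 higher, against 12.7% lower among all genes, and the median log2 fold change was −1.63. Without Ppara KO replicate 1, the same number were lower, with a median of −1.73. Cpt1a makes the carnitine esters that enter the mitochondrion and is the usual control point of the pathway. It was at 1060, 1530, 1070 and 1390 CPM in control livers and 869, 715, 511 and 708 CPM in Ppara KO livers, a 1.80-fold fall without overlap (log2 fold change −0.85, SE 0.21, adjusted p = 0.0154). Slc25a20, the carrier that brings those esters across the inner membrane, fell further and more evenly. Its level was 217, 238, 224 and 230 CPM in control livers and 62.1, 52.9, 61.2 and 52.8 CPM in KO livers, a 3.99-fold fall (SE 0.13 on the log2 scale, adjusted p = 2.91e-05). Cpt2, the next enzyme, was at 87.8 to 104 CPM in control livers. In KO livers it was at 38.0 to 50.9 CPM in replicates 2 to 4 but at 96.1 CPM in replicate 1, within the control range. Its log2 fold change was −0.76 (adjusted p = 0.0444), and −1.10 (adjusted p = 0.00101) without that library. The call was lost when any other library was left out, with adjusted p from 0.0800 to 0.111.

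The enzymes of the β-oxidation spiral fell together. Acadm, the medium-chain acyl-CoA dehydrogenase, was at 639 to 812 CPM in control livers and 140 to 321 CPM in KO livers (log2 fold change −1.65, SE 0.24). Hadha, a subunit of the trifunctional protein, was at 650, 893, 692 and 818 CPM in control livers and 255, 174, 185 and 255 CPM in KO livers, a 3.53-fold fall (adjusted p = 0.000216). Every KO library of both genes lay below every control library. The largest fall of the list was that of Hadh, the short-chain hydroxyacyl-CoA dehydrogenase, at 402 to 489 CPM in control and 53.1 to 98.1 CPM in KO livers (5.73-fold, adjusted p = 6.32e-05). Eci1, which isomerizes double bonds of unsaturated fatty acids, fell 5.23-fold, with 257 ± 31.6 CPM in control and 49.4 ± 5.52 CPM in KO livers (SD, n = 4 each). Etfdh, which passes the electrons of these dehydrogenases to the respiratory chain, fell 3.92-fold, from 405 ± 30.0 to 104 ± 19.3 CPM (SD, n = 4 each).

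**Figure D2:**
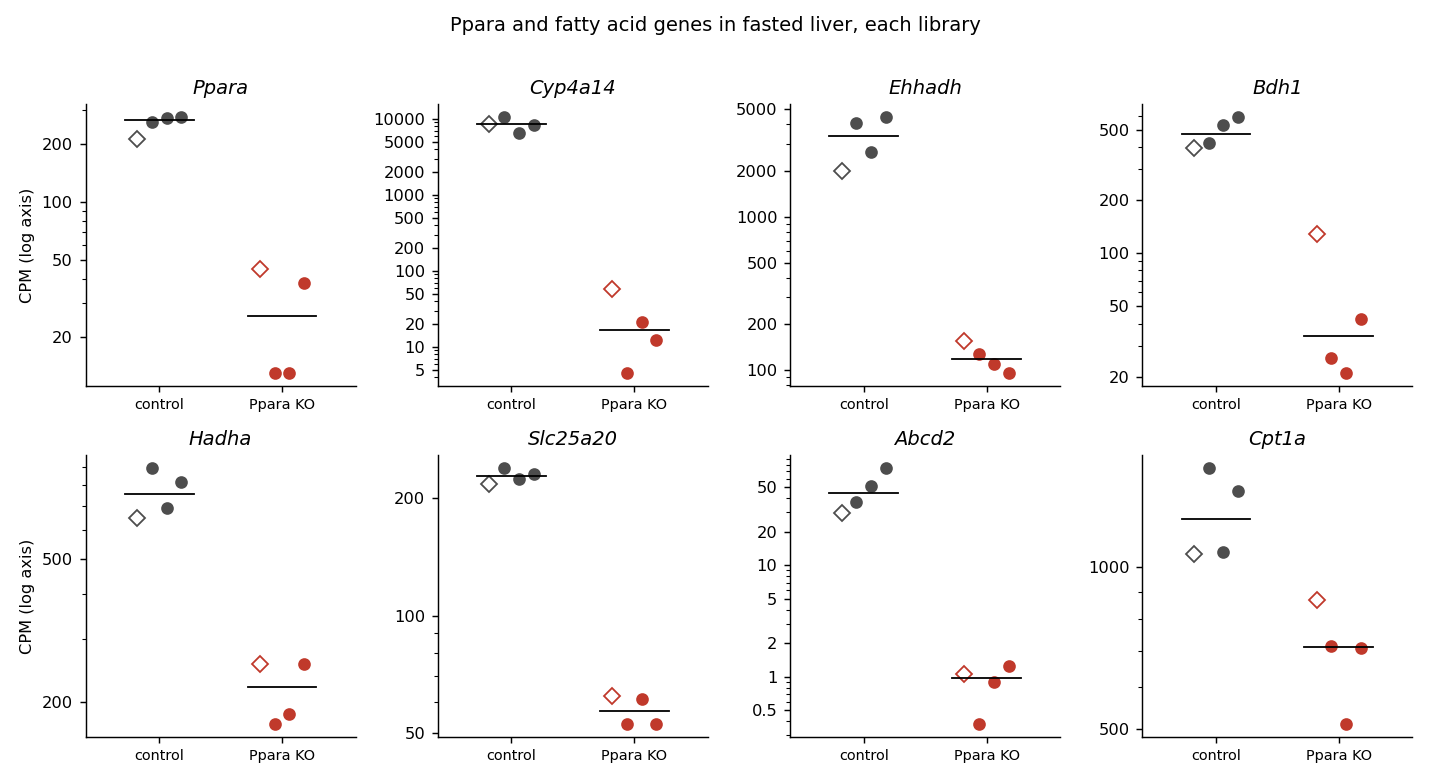
CPM on a log axis of Ppara and 7 fatty acid genes in each control and Ppara KO library; open diamonds are replicate 1, filled circles replicates 2 to 4, and lines are medians. In all 8 panels the control libraries lie above the Ppara KO libraries.

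Promoter sequences were searched because Pparα acts through the direct repeat. The search used 2 direct copies of AGGTCA with 1 base of any kind between them, on both strands, and allowed 2 mismatches among the 12 letters. Windows ran from 250 bases before to 50 bases after each RefSeq gene start in GRCm38.p6. Such a match was present in 3.86% of 32851 windows and in 4.40% of 27025 genes. Of 30 called genes that the naming rule takes from the lists of mitochondrial oxidation, ketogenesis, peroxisomes, omega-hydroxylation and acyl-CoA thioesterases or synthetases, 18 had a window and 2 held a match. These 2 windows are shown with the match in capitals, 5′ to 3′ on the strand of the gene. In Adh4 (chr3:138415247-138415546, plus strand) the match has 1 mismatch and lies at positions −18 to −6 from the RefSeq start, within an exon of a GENCODE transcript that begins upstream. In Slc25a20 (chr9:108661886-108662185, plus strand) it has 2 mismatches and lies at positions 6 to 18, within an untranslated part of an exon. Both matches are on the strand of the gene, and a match describes letters only, not binding.
Adh4: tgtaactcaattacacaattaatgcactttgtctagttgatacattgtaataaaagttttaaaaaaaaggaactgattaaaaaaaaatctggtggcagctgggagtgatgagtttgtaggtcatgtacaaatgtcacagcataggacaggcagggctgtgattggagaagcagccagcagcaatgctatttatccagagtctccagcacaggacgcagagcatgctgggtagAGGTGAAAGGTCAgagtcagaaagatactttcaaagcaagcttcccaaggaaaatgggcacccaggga
Slc25a20: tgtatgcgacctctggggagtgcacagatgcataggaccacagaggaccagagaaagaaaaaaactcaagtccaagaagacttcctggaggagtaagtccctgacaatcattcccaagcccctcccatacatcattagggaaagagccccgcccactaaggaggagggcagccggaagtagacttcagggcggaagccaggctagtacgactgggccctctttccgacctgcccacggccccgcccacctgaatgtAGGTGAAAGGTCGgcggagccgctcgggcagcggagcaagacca

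Ketogenesis, the making of ketone bodies from acetyl-CoA, showed large falls in its enzymes. Of 8 genes, all tested, 6 were called lower and 1 higher, or 87.5% against 27.5% of all genes (median log2 fold change −1.12), and the counts were the same without Ppara KO replicate 1. Bdh1, which reduces acetoacetate to β-hydroxybutyrate, was at 128, 25.6, 21 and 42.2 CPM in KO livers against 394 to 587 CPM in control livers, with KO replicate 1 highest of its group. Its log2 fold change was −3.17 (SE 0.53, adjusted p = 0.00272) and −4.02 without replicate 1. Acat1, the thiolase that supplies acetoacetyl-CoA, fell 3.90-fold without overlap. The member that rose was Slc16a6, a monocarboxylate transporter. It was at 2.73, 2.16, 3.70 and 4.16 CPM in control livers and 13.2, 54.4, 39.7 and 17.9 CPM in KO livers (log2 fold change 3.29, SE 0.46, adjusted p = 0.00108).

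Peroxisomes shorten very-long-chain and dicarboxylic fatty acids, and they are the organelle after which the receptor is named. Of 40 peroxisomal genes tested, 24 were called lower and 0 higher, or 60% against 27.5% of all genes, with a median log2 fold change of −0.68. Without Ppara KO replicate 1, 23 were lower. The enzymes of the peroxisomal spiral moved by very different amounts. Ehhadh, a bifunctional enzyme of the spiral, fell 27.1-fold, from 1990, 4060, 2630 and 4450 CPM to 154, 127, 109 and 95.9 CPM (log2 fold change −4.76, SE 0.32, adjusted p = 2.91e-05). Hsd17b4, a second bifunctional enzyme, fell 5.53-fold, from 959 ± 162 to 174 ± 19.5 CPM (SD, n = 4 each). Acaa1b, a thiolase with a close paralog, fell 14.2-fold, with 73.0 to 269 CPM in KO livers against 1760 to 3150 CPM.

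The largest peroxisomal fall was in Abcd2, a transporter of very-long-chain fatty acids. It was at 29.4, 36.9, 51.5 and 74.2 CPM in control livers and 1.05, 0.377, 0.893 and 1.24 CPM in KO livers, a 53.0-fold fall (adjusted p = 2.94e-05). Crot, which makes carnitine esters for export from the peroxisome, fell 7.06-fold (log2 fold change −2.82, SE 0.25). No library of either gene crossed into the other group.

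Omega-hydroxylation in the endoplasmic reticulum starts the conversion of fatty acids to dicarboxylic acids, and it held the largest fall among all genes. Of 16 genes tested, 8 were called lower and 1 higher, or 56.2% against 27.5% of all genes (median log2 fold change −0.92). Without Ppara KO replicate 1, 8 were lower and 3 higher. Cyp4a14, a fatty acid hydroxylase, was at 8490, 10500, 6570 and 8370 CPM in control livers and at 58.0, 4.52, 21.1 and 12.2 CPM in Ppara KO livers. This was a 358-fold fall (log2 fold change −8.48, SE 0.80, adjusted p = 0.000134), and the log2 fold change was −9.40 without replicate 1. Cyp4a10, its neighbour in the same gene cluster, fell 62.2-fold, from 2850 to 6800 CPM in control livers to 18.9 to 161 CPM in KO livers (log2 fold change −5.96, and −6.58 without replicate 1). The Cyp4a genes are close paralogs, and how shared reads were counted is not given in the sources used here. Aldh3a2, a fatty aldehyde dehydrogenase, fell 10.7-fold and Adh4, an alcohol dehydrogenase, fell 7.05-fold, from 90.5 ± 21.5 to 12.9 ± 5.22 CPM (SD, n = 4 each). The windows of Adh4 and Slc25a20 are the ones shown above.

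Acyl-CoA thioesterases release free fatty acids from coenzyme A, and synthetases attach it. Of 25 such genes tested, 14 were called lower and 2 higher, or 64% against 27.5% of all genes, and the median log2 fold change was −1.03. Without Ppara KO replicate 1, 14 were lower and 3 higher. Acot3, a peroxisomal thioesterase, was at 27.4, 39.5, 124 and 99.6 CPM in control livers and 2.37, 2.03, 0.549 and 0.137 CPM in KO livers, a 55.2-fold fall (SE 0.75 on the log2 scale, adjusted p = 0.000839). Acot1, its cytosolic paralog, fell 3.08-fold, from 256 ± 74.2 to 83.3 ± 13.4 CPM (SD, n = 4 each), a call that was lost with all 24 libraries in 1 fit (edgeR adjusted p = 0.0884). Acot6, of the same gene cluster, rose from 1.33 ± 0.545 to 4.21 ± 1.07 CPM (SD, n = 4 each, adjusted p = 0.00799). Acsl1, the main long-chain synthetase of liver, fell 2.49-fold, with KO libraries at 458, 1210, 775 and 587 CPM and control libraries at 1540 to 2380 CPM. Vnn1, a pantetheinase that takes part in coenzyme A turnover and was in no list, was among the 15 genes that fell most. It was at 134, 131, 218 and 204 CPM in control livers and 1.64, 0.0753, 0.275 and 1.10 CPM in KO livers (log2 fold change −7.69, SE 0.58, and −8.42 without replicate 1).

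Of 31 genes of fatty acid uptake, binding and lipid droplets tested, 14 were called lower and 2 higher, or 51.6% against 27.5% of all genes (median log2 fold change −0.68). The counts were 14 and 3 without Ppara KO replicate 1. Fabp1, the main fatty acid binding protein of hepatocytes, was at 1750, 1880, 3040 and 2710 CPM in control livers and 179, 96.3, 34.5 and 15.5 CPM in KO livers, a 29.0-fold fall (log2 fold change −4.86, adjusted p = 0.00133, and −5.56 without replicate 1). Hsd17b11, a lipid droplet enzyme, fell 7.17-fold and G0s2, an inhibitor of the triglyceride lipase Pnpla2, fell 8.18-fold, both without overlap. Plin2, the coat protein of hepatic lipid droplets, did not pass the test, at 362 to 599 CPM in control and 500 to 1230 CPM in KO livers (log2 fold change 0.81, SE 0.28, adjusted p = 0.0548). Plin2 passed by DESeq2 (adjusted p = 0.0195), with no filter (0.0491), and without Ppara KO replicate 2 (0.0176) or 4 (0.0433). Cd36, a fatty acid transporter, was called lower (adjusted p = 0.0482) although its groups overlapped, at 31.9 to 131 and 29.6 to 45.3 CPM. That call was lost without control replicate 3 (adjusted p = 0.140), control replicate 4 (0.111), or Ppara KO replicate 2 (0.110), 3 (0.123) or 4 (0.0943).

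Among pyruvate and energy genes, 6 of 19 were called lower and 2 higher, both with and without Ppara KO replicate 1, against 12.7% lower and 14.8% higher among all genes. The count of 8 fell to 5 without control replicate 1, control replicate 2 or Ppara KO replicate 3. Pdk1, a kinase that turns off pyruvate dehydrogenase, fell 3.26-fold, from 87.5 ± 12.4 to 26.8 ± 7.82 CPM (SD, n = 4 each). Pdk4, the kinase best known from fasting, was at 12.5, 20.1, 22.8 and 13.1 CPM in control livers and 22.7, 198, 284 and 16.4 CPM in KO livers. Replicates 2 and 3 were high and the other 2 KO libraries lay within or at the edge of the control range. Pdk4 was called higher (log2 fold change 2.93, adjusted p = 0.0283), but not when any single control library was left out (adjusted p from 0.0517 to 0.0669) nor without Ppara KO replicate 2 (0.0909) or 3 (0.0805).

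Of 30 secreted fasting factors tested, 6 were higher and 8 lower, against 14.8% higher and 12.7% lower among all genes, and 7 were higher and 9 lower without Ppara KO replicate 1. Fgf21, a hormone of the fasted liver, was at 4.34, 12, 8.22 and 10.7 CPM in control livers and 1.87, 0.0753, 0.275 and 0.549 CPM in KO livers (log2 fold change −3.56, SE 0.65, adjusted p = 0.00382, and −4.81 without replicate 1). Angptl4, an inhibitor of lipoprotein lipase, did not pass the test (164 to 260 and 99.2 to 278 CPM, adjusted p = 0.520). Igfbp1, an insulin-like growth factor binding protein, rose 5.30-fold and Serpina12, the adipokine vaspin, rose 13.7-fold, from 5.28 ± 1.15 to 73.0 ± 15.1 CPM (SD, n = 4 each, adjusted p = 1.91e-05). Gdf15, a stress hormone, was at 8.97, 9.73, 2.62 and 4.34 CPM in control livers and 66.8, 213, 427 and 26.8 CPM in KO livers (log2 fold change 4.84, SE 0.86, adjusted p = 0.00379). Inhbb, the β subunit of activin B, rose 8.59-fold.

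**Figure D3:**
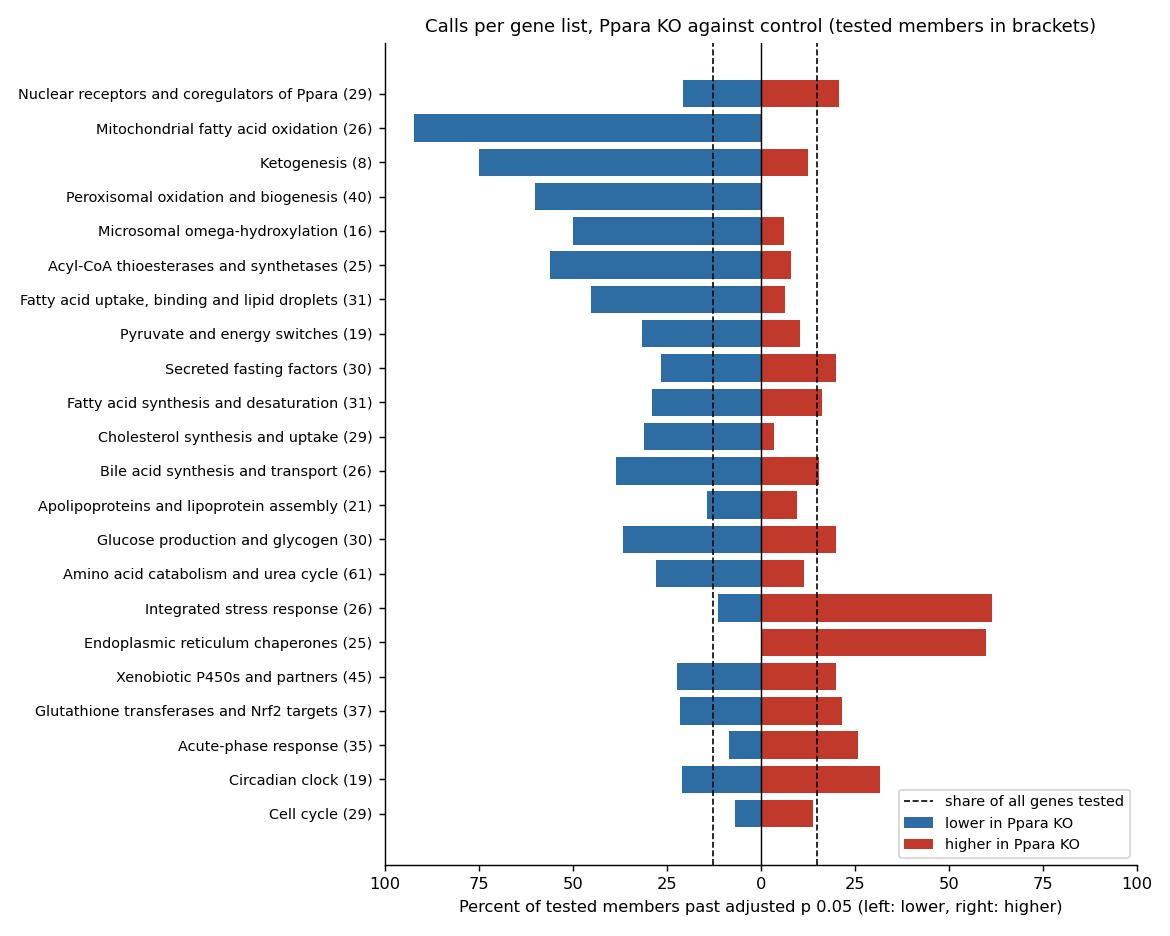
Percent of the tested members of the pathway lists, without the cell type markers, called lower (left) or higher (right) in Ppara KO livers; dashed lines mark 12.7% lower and 14.8% higher among all genes tested, and the number of members tested is in brackets. Of the lists drawn, those of fatty acid oxidation, ketogenesis and peroxisomes reach farthest to the left, those of the integrated stress response and endoplasmic reticulum chaperones farthest to the right.

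Anabolic lipid genes were less uniform. In fatty acid synthesis and desaturation, 9 of 31 genes were called lower and 5 higher (45.2%, against 27.5% of all genes), and 9 and 7 without Ppara KO replicate 1. The count of 14 fell to 9 without control replicate 4 or Ppara KO replicate 3. Fads2, the Δ6 desaturase, fell 4.27-fold, from 608 ± 112 to 143 ± 81.1 CPM (SD, n = 4 each). Fasn, the fatty acid synthase, was at 55.5 to 151 CPM in control livers and 83.0, 1210, 557 and 192 CPM in KO livers (adjusted p = 0.0306), and Scd1, the Δ9 desaturase, did not pass (adjusted p = 0.698). The Fasn call was lost without control replicate 1 (adjusted p = 0.0712), 3 (0.0703) or 4 (0.0680), or Ppara KO replicate 2 (0.0926) or 3 (0.0632).

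In cholesterol synthesis and uptake, 9 of 29 genes were lower and 1 was higher, with a median log2 fold change of −0.74, and 10 and 1 without Ppara KO replicate 1. The share called was 34.5%, against 27.5% of all genes. Stard4, a cholesterol carrier, fell 3.90-fold without overlap. The gene that rose was Insig2, a brake on the processing of the sterol regulator Srebp. It was at 339, 292, 170 and 199 CPM in control livers and 1110, 2190, 3220 and 1290 CPM in KO livers (log2 fold change 2.96, SE 0.38, adjusted p = 0.000627).

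Bile acid genes included 10 lower and 4 higher of 26 tested (53.8%, against 27.5% of all genes), and 9 and 6 without Ppara KO replicate 1. The count of 14 fell to 8 without control replicate 4 and to 9 without Ppara KO replicate 3. Cyp7a1, the rate-limiting enzyme of bile acid synthesis, was at 95.7, 438, 173 and 318 CPM in control livers and 28, 7.08, 3.71 and 21.6 CPM in KO livers, a 16.9-fold fall (SE 0.69 on the log2 scale, adjusted p = 0.00305). Cyp8b1, which makes cholic acid, fell 3.69-fold, and Abcg5, part of the sterol exporter, fell 4.10-fold. Cyp2c70, which makes the muricholic acids of mice, rose 12.6-fold, from 30.9, 13.6, 18.4 and 13.6 CPM to 217, 162, 231 and 365 CPM (adjusted p = 0.000117).

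Of 21 apolipoprotein and lipoprotein assembly genes tested, 3 were lower and 2 higher, or 23.8% against 27.5% of all genes, and 4 lower and 2 higher without Ppara KO replicate 1. The count of 5 fell to 3 when any single control library or Ppara KO replicate 3 was left out. Apoc1, a small exchangeable apolipoprotein, fell from 2120 ± 82.0 to 1080 ± 138 CPM (SD, n = 4 each, adjusted p = 0.00326). Abca1, the cholesterol exporter that feeds nascent HDL, rose 2.08-fold (adjusted p = 0.00799).

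Of 30 genes of glucose production and glycogen, 11 were lower and 6 higher, against 12.7% and 14.8% of all genes, and 10 and 4 without Ppara KO replicate 1. The count of 17 fell to 11 without control replicate 1 or 4, to 10 without control replicate 2 and to 8 without Ppara KO replicate 3. Pck1, the enzyme that commits oxaloacetate to gluconeogenesis, was at 5930, 5500, 4960 and 4930 CPM in control livers and 3780, 3280, 2510 and 2660 CPM in KO livers, a 1.75-fold fall (adjusted p = 0.0147, and 0.0564 without Ppara KO replicate 3). G6pc, which releases free glucose, fell 2.66-fold, with 295 to 458 CPM in control and 93.2 to 171 CPM in KO livers. Gpd1, which links glycerol to glucose production, fell 5.14-fold.

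Of 61 genes of amino acid catabolism and the urea cycle, 17 were lower and 7 higher, against 12.7% and 14.8% of all genes, with a median log2 fold change of −0.04. Without replicate 1 of Ppara KO, the counts were 15 and 10. Slc25a13, the aspartate-glutamate carrier of liver mitochondria, fell 3.18-fold, from 422 ± 38.2 to 133 ± 27.7 CPM (SD, n = 4 each, adjusted p = 0.000274). Cps1, the first enzyme of the urea cycle, did not pass (adjusted p = 0.141).

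The clearest rises were in stress genes. The integrated stress response is a program of Atf4 and related factors that is turned on by amino acid shortage and by mitochondrial or endoplasmic reticulum stress. Of 26 of its genes tested, 16 were called higher and 3 lower, against 14.8% and 12.7% of all genes, and the median log2 fold change was 1.55. Without Ppara KO replicate 1, 17 were higher and 3 lower, with a median of 1.79. Asns, which makes asparagine, was at 7.13, 7.23, 1.08 and 3.82 CPM in control livers and 32.0, 21.2, 54.7 and 62.8 CPM in KO livers (log2 fold change 3.15, SE 0.54, adjusted p = 0.00303). Psat1, of serine synthesis, rose 17.0-fold from 0.668 ± 0.681 CPM, and Mthfd2, of mitochondrial folate metabolism, rose 11.5-fold from 1.12 ± 0.365 CPM (SD, n = 4 each). For Psat1, control replicate 4 was far above the other controls, at 1.68 CPM, so the size of its rise depends on that library. The transcription factor Atf3 was at 0.416 to 2.09 CPM in control livers and 9.41 to 31.3 CPM in KO livers, and Ddit3 (CHOP), another factor of the program, rose 4.80-fold. Trib3, an inhibitor of Akt, rose 4.33-fold, from 14.8 ± 3.97 to 64.3 ± 25.8 CPM (SD, n = 4 each). Of the members named so far, Fgf21 and Gdf15 belong to this list too. Fgf21 was among its 3 lower genes and Gdf15 among its 16 higher genes. Some genes stand in several lists, so the lists are not separate from each other.

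Chaperones of the endoplasmic reticulum rose with them. Of 25 tested, 15 were called higher and 0 lower, against 14.8% and 12.7% of all genes (median log2 fold change 1.04), and 18 higher and 0 lower without Ppara KO replicate 1. Hspa5 (BiP), the main chaperone of this compartment, was at 790, 1090, 575 and 720 CPM in control livers and 2080, 4750, 7440 and 9920 CPM in KO livers. It rose 7.60-fold (SE 0.44 on the log2 scale, adjusted p = 0.00142), and KO replicate 1 was the lowest of its group. Sdf2l1, part of a chaperone complex with BiP, rose 7.98-fold, from 14.5 to 33.2 CPM to 88.1 to 338 CPM. Xbp1, the factor whose spliced form drives many chaperones, rose 1.80-fold, from 194 ± 18.5 to 349 ± 54.8 CPM (SD, n = 4 each, adjusted p = 0.00558). Splicing of Xbp1 cannot be read from counts per gene. Creld2, a stress-induced chaperone that lies within 5 Mb of Ppara, rose 6.76-fold, with 26.7 to 52.4 CPM in control and 104, 146, 267 and 556 CPM in KO livers.

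**Figure D4:**
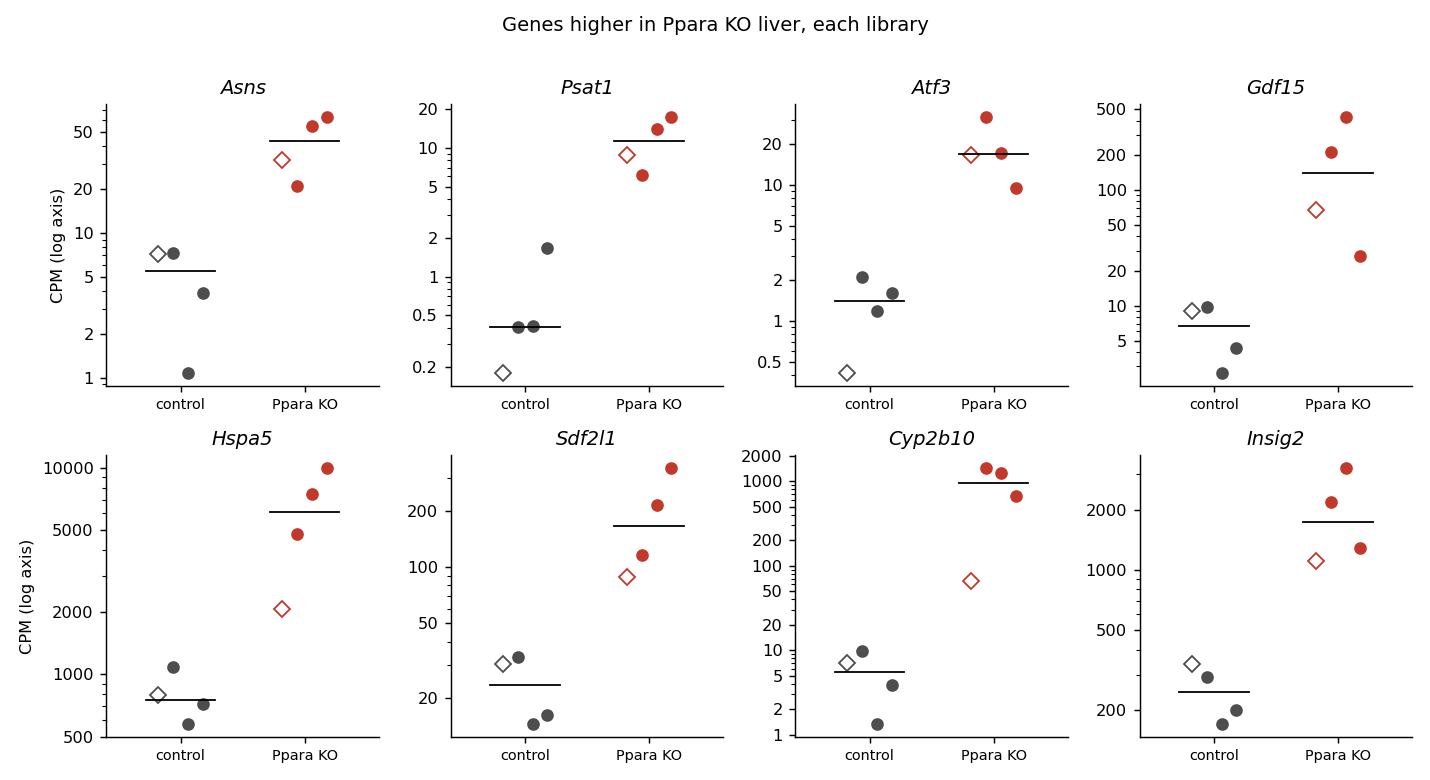
CPM on a log axis of 8 genes called higher in Ppara KO livers, in each control and Ppara KO library; open diamonds are replicate 1, filled circles replicates 2 to 4, and lines are medians. No library of one group reaches into the other, and for Cyp2b10 replicate 1 of Ppara KO, at 65.6 CPM, lies well under the other 3.

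Of 45 genes of drug and steroid metabolism tested, 9 were higher and 10 lower, against 14.8% and 12.7% of all genes, and 11 and 10 without Ppara KO replicate 1. Cyp2b10, a marker of the receptor Car, was at 7.01, 9.66, 1.34 and 3.93 CPM in control livers and 65.6, 1420, 1240 and 671 CPM in KO livers, a 157-fold rise (log2 fold change 7.29, SE 1.02, adjusted p = 0.00120). Nr1i3, the gene of Car, was itself lower, at 136 to 321 and 54.8 to 123 CPM (log2 fold change −1.28, adjusted p = 0.0102). Sult1e1, the estrogen sulfotransferase, was at 0.257 to 0.540 CPM in control livers and 7.31 to 43.5 CPM in KO livers, a 60.8-fold rise. Within the Cyp2c cluster, Cyp2c29 rose 5.83-fold, from 202 ± 52.6 to 1180 ± 166 CPM, and Cyp2c39 fell 198-fold, from 304 ± 144 to 1.51 ± 0.539 CPM (SD, n = 4 each, adjusted p = 2.08e-05). These are paralogs, and how reads shared between them were counted is not known. Cyp3a11, the main Cyp3a of liver, fell 2.58-fold (adjusted p = 0.0100).

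Glutathione transferases and targets of Nrf2, the oxidant response factor, had 8 higher and 8 lower genes of 37, against 14.8% and 12.7% of all genes, and 7 and 12 without Ppara KO replicate 1, which was the highest KO library for Gstm3, Srxn1 and Gstm1. Gstm3 was at 4.16 to 7.61 CPM in control livers and 420, 43.6, 139 and 122 CPM in KO livers (log2 fold change 4.95, SE 0.65, and 4.14 without replicate 1). Srxn1, which repairs peroxiredoxins, was at 55.4 to 91.4 CPM in control livers and 800, 127, 140 and 432 CPM in KO livers (log2 fold change 2.29, adjusted p = 0.0127, and 1.62, adjusted p = 0.0157, without replicate 1). Gstm1 was called higher with replicate 1 (adjusted p = 0.0388) and not without it (0.0727), and its call was lost without any other library except Ppara KO replicate 4 (adjusted p from 0.0519 to 0.105). Hmox1, the heme oxygenase, rose from 14.5 ± 3.76 to 53.8 ± 14.1 CPM (SD, n = 4 each, adjusted p = 0.000660).

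In the acute-phase list 9 of 35 genes were higher and 3 lower, and 11 and 2 without Ppara KO replicate 1. The share called was 34.3%, against 27.5% of all genes. The count of 12 fell to 7 without control replicate 4 and to 6 without Ppara KO replicate 2 or 3. Fgb, the fibrinogen β chain, rose 3.55-fold, from 2060 ± 114 to 7290 ± 3190 CPM, and Saa4 fell 4.99-fold, from 214 ± 52.7 to 43.0 ± 16.1 CPM (SD, n = 4 each). Saa1, the most inducible acute-phase gene, was at 1550 and 854 CPM in control replicates 1 and 2 but at 39.2 and 34.5 CPM in control replicates 3 and 4, and did not pass (adjusted p = 0.170). Clock genes had 6 higher and 4 lower of 19, against 14.8% and 12.7% of all genes, and 8 and 4 without Ppara KO replicate 1. Arntl (Bmal1) rose from 3.63 ± 2.53 to 24.1 ± 16.3 CPM (adjusted p = 0.0100) and Dbp, an output gene of the clock, fell from 74.1 ± 37.5 to 17.5 ± 7.31 CPM (SD, n = 4 each, adjusted p = 0.00608). The study's methods place the start and end of its fasts in mid-afternoon, whereas the labels give no hour for single livers, and the part of collection time was not tested.

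Cell cycle genes were near the background, with 4 higher and 2 lower of 29 (20.7% against 27.5%), and 4 and 3 without Ppara KO replicate 1. Mki67, a marker of dividing cells, did not pass (0.773 to 1.35 and 1.03 to 3.23 CPM, adjusted p = 0.284). Cdkn1a (p21), an inhibitor of the cycle, was at 49.7, 54.1, 4.73 and 8.10 CPM in control livers and 82.8, 333, 360 and 79.5 CPM in KO livers (adjusted p = 0.0320). That call was lost without control replicate 4 (0.0651), Ppara KO replicate 2 (0.0991) or Ppara KO replicate 3 (0.0795). Ccnd3, a D-type cyclin, fell 3.49-fold, from 44.4 ± 7.42 to 12.7 ± 1.51 CPM (SD, n = 4 each, adjusted p = 0.000116).

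Of 29 nuclear receptors and coregulators, among them the partners of Pparα, 6 were higher and 6 lower (41.4%, against 27.5% of all genes), and 9 and 4 without Ppara KO replicate 1. The count of 12 fell to 5 or 6 when any single control library was left out, and to 5 without Ppara KO replicate 3. Rxra, the obligate partner, did not pass, at 725 to 850 CPM in control and 467 to 752 CPM in KO livers (log2 fold change −0.33, SE 0.19, adjusted p = 0.212). Nrip1, a corepressor of nuclear receptors, rose 2.43-fold, from 18.7 ± 4.37 to 45.6 ± 11.5 CPM (SD, n = 4 each, adjusted p = 0.00320).

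Markers of liver cell types were examined beside these changes, and the share called in the Kupffer, endothelial, stellate and cholangiocyte lists was 23.5%, 33.3%, 31.2% and 28.6%, against 27.5% of all genes. In the fit without Ppara KO replicate 1, 1 hepatocyte marker was higher and 1 lower, 1 Kupffer cell marker higher and 3 lower, 1 endothelial marker higher and 4 lower, 2 stellate cell markers higher and 3 lower, and 1 cholangiocyte marker higher. Hepatocyte markers had 1 gene higher and 1 lower of 13 (median log2 fold change 0.04), and 1 call when any 1 control library or Ppara KO replicate 2 or 3 was left out, with summed levels of 79700 to 105000 CPM in control and 80700 to 113000 CPM in KO livers. Alb, albumin, was at 39800 to 48100 and 32100 to 46300 CPM (adjusted p = 0.584). Of Kupffer cell and macrophage markers, 2 of 17 were higher and 2 lower, a count of 4 that fell to 2 without control replicate 1 or 2 or Ppara KO replicate 3, fell to 1 without control replicate 4 and rose to 7 without Ppara KO replicate 4, and the defining gene Clec4f did not pass (87.0 ± 12.7 and 103 ± 14.5 CPM, SD, n = 4 each, adjusted p = 0.296). Of sinusoidal endothelial markers, 1 of 15 was higher and 4 were lower, a count of 5 that fell to 3 without control replicate 2, 3 or 4 or Ppara KO replicate 2 or 3. Lyve1 rose 3.52-fold and Fcgr2b, an antibody receptor of these cells, fell 2.35-fold, so its members moved in opposite directions. Of stellate cell and fibroblast markers, 2 of 16 were higher and 3 lower, among the latter Col3a1, a fibrillar collagen (31.7 ± 13.1 and 8.14 ± 4.32 CPM, SD, n = 4 each, adjusted p = 0.00651). Of cholangiocyte markers, 2 of 7 were higher (1 when any 1 library other than control replicate 3 or Ppara KO replicate 4 was left out), among them Sox9 (3.23 ± 0.915 and 16.1 ± 11 CPM, SD, n = 4 each). Erythroid markers had 0 of 6 called, with summed levels of 336 to 785 CPM in control and 423 to 1960 CPM in KO livers, and 1 of 6 was higher at an unadjusted p under 0.05. The fit without Ppara KO replicate 1 called 1 of 6 higher. Hba-a1, a hemoglobin gene, did not pass (adjusted p = 0.0871), and passed by DESeq2 (0.0260), with the replicate number as a block (0.0224), and without Ppara KO replicate 1 (0.0495) or 3 (0.0407). Lymphocyte, neutrophil, adipocyte and acinar lists had 1 to 3 tested genes each, and the summed lymphocyte level was 17.6 to 55.4 CPM in control and 8.04 to 16.4 CPM in KO livers. Of 3 lymphocyte genes tested 1 was lower, Ptprc, a marker of all leukocytes (log2 fold change −0.94, adjusted p = 0.0364), and 2 were lower without Ppara KO replicate 1, but 0 without control replicate 2, 3 or 4 or Ppara KO replicate 2, 3 or 4. Both adipocyte genes tested were lower, Lipe, a lipase (log2 fold change −1.01, adjusted p = 0.00243), and Adrb3, an adrenergic receptor (−1.17, adjusted p = 0.0204), and 1 of the 2 without control replicate 1 or 3 or Ppara KO replicate 3. The summed adipocyte level was 22 to 26.4 CPM in control and 8.68 to 12.6 CPM in KO livers, without overlap, while the defining genes Adipoq, Lep and Plin1 had at most 5, 0 and 1 reads in any of the 8 libraries. The neutrophil genes S100a9 and Csf3r and the acinar gene Cela1 did not pass (adjusted p = 0.789, 0.640 and 0.215). Whether shifts in cells other than hepatocytes had a part in the changes above was not tested.

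The genes that rose most included several without a listed pathway. Gldn, gliomedin, was at 0 to 0.231 CPM in control livers and 32.0, 12, 16.4 and 34.7 CPM in KO livers (log2 fold change 7.95, SE 0.66, adjusted p = 6.32e-05). The control level rested on at most 4 reads per library. Adcy1, an adenylate cyclase best known from brain, was at 0.257 to 0.752 CPM in control livers and 10.9 to 19.5 CPM in KO livers, a 33.4-fold rise. Bhlha15 (Mist1), a factor of secretory cells, rose from 0.137 ± 0.108 to 8.97 ± 4.86 CPM (SD, n = 4 each, adjusted p = 0.000451).

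Genes near Ppara were counted apart, since a targeted locus is inherited with its neighbours. Of 99 genes tested within 5 Mb on either side, 32 (32.3%) were called, 16 higher and 16 lower, against 27.5% of all genes and 30.5% of 502 genes on chromosome 15. Of 102 genes tested there without Ppara KO replicate 1, 20 were higher and 14 lower. Arfgap3, of vesicle transport, rose 3.70-fold, from 9.59 ± 2.13 to 35.8 ± 9.13 CPM, and Bik, a proapoptotic protein, fell 4.49-fold, from 5.62 ± 1.65 to 1.25 ± 0.314 CPM (SD, n = 4 each).

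Livers with and without Ppara were then compared in the Cpt2L-/- background. In Cpt2L-/- Ppara KO against Cpt2L-/- livers, 2499 of 13615 genes (18.4%) were called, 1409 (10.3%) higher and 1090 (8.01%) lower. The count fell to 1149 without Cpt2L-/- replicate 3, to 1239 without Cpt2L-/- replicate 4 and to 1418 without Cpt2L-/- Ppara KO replicate 2. It was 1851 without Cpt2L-/- Ppara KO replicate 1 and rose to 2990 without replicate 4 of that genotype. The overlap shares below were not recomputed for these fits. The groups compared here share no library with the first comparison. Filter, scaling and spread were nevertheless estimated in the fit of 16 libraries, which includes those of the first comparison. Of 12947 genes tested in both, 293 were lower in both, which is 17.8% of those lower without Ppara alone and 27.6% of those lower in the Cpt2L-/- background. In the same way, 245 were higher in both, 12.8% and 17.7%. In the same order, the shares over all genes were 8.01% and 12.7% for lower genes. For higher genes they were 10.3% and 14.8%, so the overlap of higher genes was near that of all genes. Among Cpt2L-/- Ppara KO libraries, Ppara was at 91.9, 26.2, 46.2 and 41.2 CPM, against 273 to 385 CPM in Cpt2L-/- livers (log2 fold change −2.63, adjusted p = 0.000405).

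Mitochondrial and peroxisomal genes of fatty acid oxidation were often lower in this background too. Of the mitochondrial oxidation genes 16 of 26 were lower and 0 higher, and of the peroxisomal genes 23 of 40 were lower and 5 higher, against 8.01% lower and 10.3% higher among all genes. Of the ketogenesis genes 2 of 8 were lower and 0 higher, with a median log2 fold change of −0.34. Without Cpt2L-/- Ppara KO replicate 1, 21 mitochondrial genes were lower and 0 higher, 22 peroxisomal genes were lower and 5 higher, and 3 ketogenesis genes were lower and 0 higher, with a median of −0.75. Ehhadh was at 8460, 9780, 10700 and 12500 CPM in Cpt2L-/- livers and 3620, 132, 154 and 170 CPM in Cpt2L-/- Ppara KO livers. Cyp4a14 had the same pattern, with 10300 to 12800 CPM and 3250, 185, 200 and 294 CPM. Replicate 1 was thus many times above the other 3 libraries for both genes, and its log2 fold changes were −3.35 and −3.60 with it and −6.08 and −5.71 without it. Acsl1 did not show this, with 1620, 2270, 2990 and 2320 CPM and 387, 332, 356 and 307 CPM (log2 fold change −2.73, adjusted p = 1.69e-05). Endoplasmic reticulum chaperones rose here as well, with 17 of 25 higher and 0 lower, and 18 and 0 without that replicate. Of 26 integrated stress response genes 6 were higher and 2 lower, and 3 and 1 without it. Over all genes tested, 936 were higher and 915 lower without that replicate, against 1409 and 1090 with it.

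The difference between the changes in the 2 backgrounds was tested as an interaction in the fit of 16 libraries, where 3270 of 13615 genes (24.0%) were called. Control libraries enter this test too, so differences of line or collection cannot be told apart from Cpt2 and Ppara in these terms. A positive value means a higher log2 fold change in the Cpt2L-/- background. Cyp4a14 fell less there (interaction 4.88, SE 1.19, adjusted p = 0.00886, and 2.77, adjusted p = 0.0127, without Cpt2L-/- Ppara KO replicate 1). Bdh1 also had a positive term (2.19, adjusted p = 0.0143, and 2.12, adjusted p = 0.0297, without that library), and Acsl1 fell more (−1.42, SE 0.39, adjusted p = 0.0153). For Ehhadh the sign of the interaction turned with the library, from 1.41 (adjusted p = 0.376) to −1.33 (adjusted p = 0.0153) without it. For Slc25a20 it was 0.73 (adjusted p = 0.275), and 0.00 without that library. Pdk4 was high in Cpt2L-/- livers (358 to 670 CPM) and lower without Ppara (17.2 to 190 CPM), opposite to its direction in the first comparison (interaction −5.86, SE 1.18, adjusted p = 0.00334). Gdf15 was already at 40.1 to 85.7 CPM in Cpt2L-/- livers and stayed at 39.8 to 102 CPM without Ppara (interaction −4.58, adjusted p = 0.00372).

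Several genes that fell steeply in the first comparison were low in Cpt2L-/- livers with or without Ppara. Cyp7a1 was at 5.26 to 14.3 CPM in Cpt2L-/- livers and 5.17 to 50.2 CPM in Cpt2L-/- Ppara KO livers (interaction 5.37, SE 0.96, adjusted p = 0.00169). Cyp2c39 was at 1.48 to 3.74 and 3.87 to 7.47 CPM (interaction 8.80, SE 0.56, adjusted p = 9.58e-08). For these genes the fall against control livers cannot be told apart from what the Cpt2L-/- and Ppara KO libraries share. Serpina12 rose alike, 13.7-fold and 12.8-fold (interaction −0.11, SE 0.45, adjusted p = 0.885), and Gldn rose from at most 0.0534 CPM to 2.03 to 22.6 CPM in the Cpt2L-/- background.

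**Figure D5:**
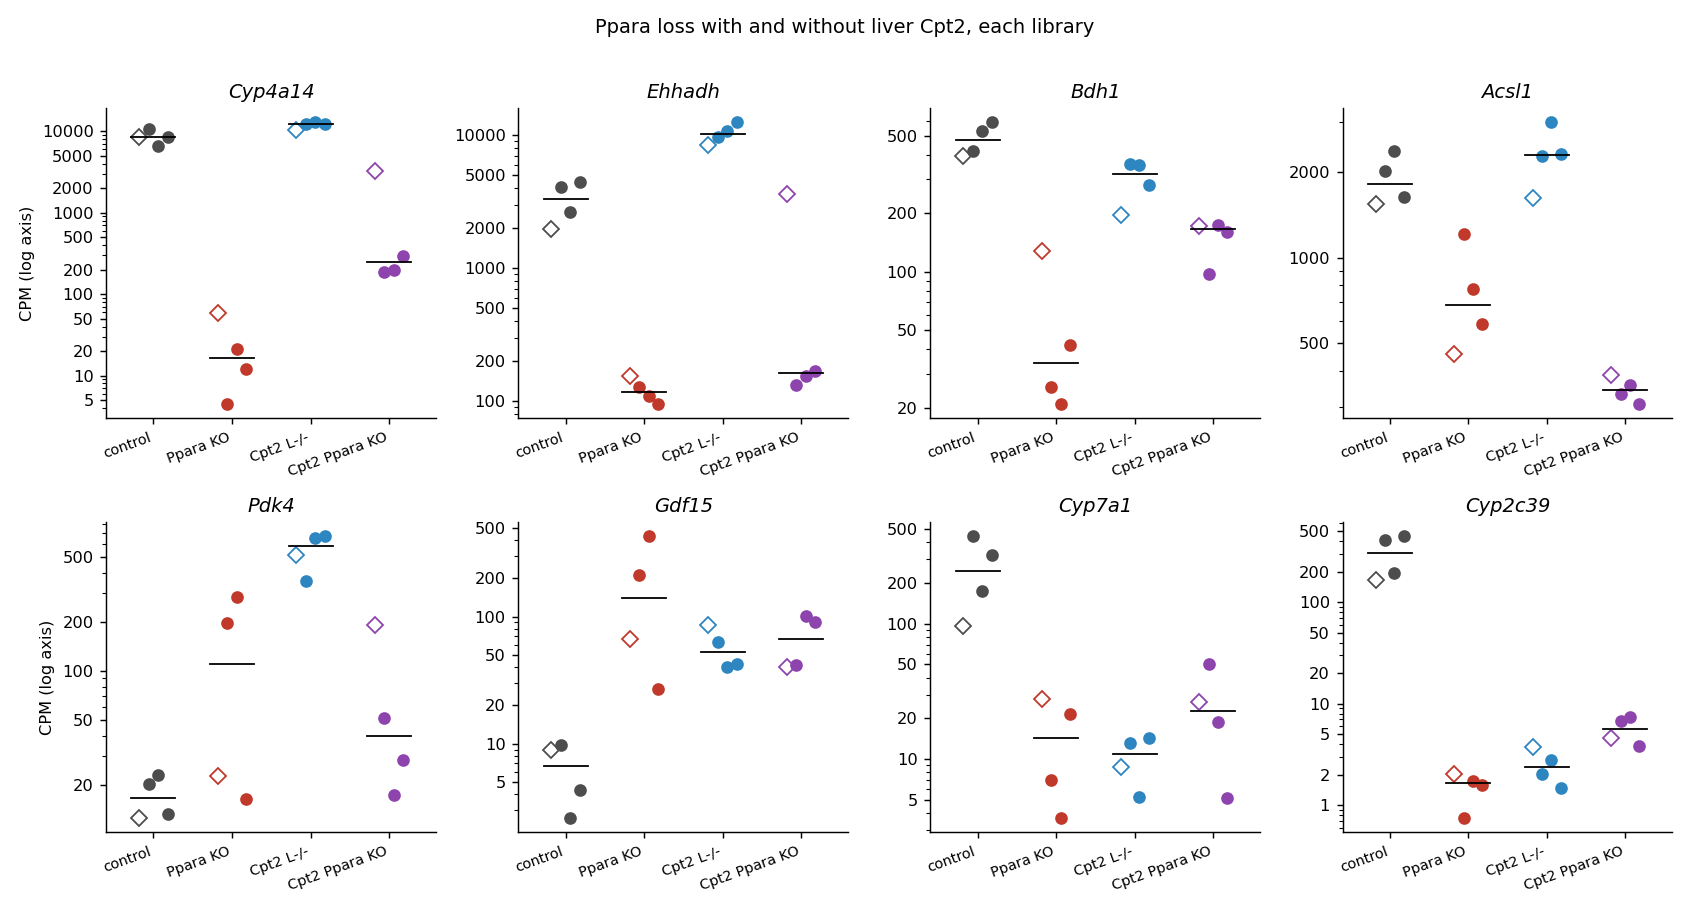
CPM on a log axis of 8 genes in each library of control, Ppara KO, Cpt2L-/- and Cpt2L-/- Ppara KO livers; open diamonds are replicate 1, filled circles replicates 2 to 4, and lines are medians. For Cyp4a14 and Ehhadh, replicate 1 of Cpt2L-/- Ppara KO lies at 3250 and 3620 CPM, above the other 3 libraries of its group.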

How the data were processed

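Libraries were made by the authors with a TruSeq stranded mRNA kit and sequenced as single 75-base reads. For 35275 Ensembl genes with GRCm38 coordinates, the authors deposited raw counts, together with FPKM values that equal each count divided by gene length and library total. The submitters' processing notes list Bowtie 0.12.2, TopHat, STAR 2.5 and HTSeq 0.6.1 among other tools without a role. The strand setting and the counting of shared reads are not given in the sources used here. How reads of paralogs or overlapping genes were assigned is therefore not known. All 35275 rows carry a gene identifier.

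The count model was fitted with edgeR 4.0.16 under R 4.3.3, using filterByExpr (minimum count 10, minimum total 15), TMM normalization, robust quasi-likelihood fits and the Benjamini-Hochberg method at 0.05. Ppara KO and control were fitted as 8 libraries, and the Cpt2L-/- background and the interaction in 1 fit of 16. CPM were computed after TMM over 24 libraries. Folds are left out where 3 reads or fewer were found in each library on one side. Alternatives were RLE factors, no filter, DESeq2 1.42.0, all 24 libraries, the replicate number as a block, limma 3.58.1 applied to log2-transformed FPKM (pseudocount 1, then 0.1), a log2 threshold of 1 besides the test, and each library left out.

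Genes and lists were chosen with earlier results of these data known. Named are Ppara, lead genes of each list, up to 6 called members per list with the largest change and no overlap, the 15 genes that fell and the 15 that rose most, called genes within 5 Mb of Ppara, the 5 largest interactions each way and check genes. Not all of these are printed, and some genes are not reported here. Cd1d2 and Rps3a3 are also among genes found by a search made after seeing the values. Promoter windows are from RefSeq. Scripts were tested on simulated data. Figures were drawn with matplotlib 3.10.9. Counts of every pair of the 16 libraries differed beyond sampling noise (lowest chi-square per degree of freedom 31.1, and 64 for Ppara KO replicate 1 with Cpt2L-/- Ppara KO replicate 4).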

Additional observations from a re-analysis of the deposited data

Results flagged for a closer look

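The difference between livers with and without Ppara was not the same in the control and the Cpt2L-/- background for 49 of the 100 genes examined, by the interaction test of edgeR (adjusted p under 0.05). These genes were named partly for large changes or large interactions, so their share is not comparable with that of all genes. Since 9 genes separated control libraries from the Ppara KO, Cpt2L-/- and Cpt2L-/- Ppara KO libraries, differences of line or collection cannot be told apart from genotype in these terms. Values in brackets are interaction terms on the log2 scale, where a positive value means a higher log2 fold change in the Cpt2L-/- background. Among genes of fatty acid use and ketogenesis, positive terms were found for Pdk1 (1.0), Acadm (1.12), Crot (1.48), Acat1 (1.51), Hadh (1.67), Bdh1 (2.19), G0s2 (2.26), Abcd2 (2.42), Cyp4a10 (2.59), Adh4 (2.83), Vnn1 (3.92) and Cyp4a14 (4.88). Negative terms in this group were those of Pdk4 (−5.86), Slc16a6 (−3.45), Plin2 (−1.99), Acot6 (−1.69) and Acsl1 (−1.42). Among secreted factors and genes of lipid synthesis, sterols, bile acids and amino acids, the term was positive for Slc25a13 (1.17), Fads2 (1.26), Apoc1 (1.67), Abcg5 (1.70), Stard4 (2.49) and Cyp7a1 (5.37), and negative for Gdf15 (−4.58), Inhbb (−3.53), Fasn (−3.00), Insig2 (−2.67) and Abca1 (−1.50). For stress, drug metabolism, acute-phase and clock genes it was positive for Dbp (1.90), Saa4 (2.41), Cyp3a11 (2.72) and Cyp2c39 (8.80), and negative for Cyp2b10 (−4.10), Atf3 (−3.70), Psat1 (−3.27), Srxn1 (−2.72), Mthfd2 (−2.70) and Hmox1 (−2.46). The other genes were Adcy1 (−4.17), Cdkn1a (−3.04), Sox9 (−2.40), Lyve1 (−2.36), Nrip1 (−2.05), Arfgap3 (−1.62), Ccnd3 (0.71), Fcgr2b (1.41) and Nnt (1.56). Cd1d2 (5.40) and Rps3a3 (7.39) are among the 49, but they were found by that search, which fixes a positive term, so their values are a description, and the other genes number 47. Without replicate 1 of Cpt2L-/- Ppara KO, 45 of the 49 were called and 0 changed sign. Crot (0.77, adjusted p = 0.0796), Acat1 (0.86, 0.0899), Cyp4a10 (1.49, 0.0894) and Cdkn1a (−3.09, 0.0717) were no longer called. Taken as a ratio of log2 terms, those of Crot, Acat1, Cyp4a10 and Cyp4a14 (2.77) moved by over 1.5 times. Other terms, such as those of Vnn1 (2.8) and Pdk4 (−7.01), moved by less on that ratio but still shifted on the log2 scale.

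In 6 of 200 groups of 4 libraries, 1 library lay far from the other 3, with a gap above the 95% critical value of Dixon, where chance gives about 1 in 20. In Ppara KO livers these were Eci1 in replicate 1 (57.6 CPM), Ddit3 in replicate 3 (63.7 CPM), and Mki67 (3.23 CPM) and Ccnd3 (10.5 CPM) in replicate 4. In control livers they were Angptl4 (164 CPM) and Psat1 (1.68 CPM) in replicate 4.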

How the results depend on the processing

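Of 3559 genes called between Ppara KO and control livers, 1800 passed when a change of 1 or more on the log2 scale was also asked for, and leaving out single libraries gave 2321 to 4177 calls, the fewest without control replicate 4. In the Cpt2L-/- background 1109 of 2499 calls passed that fold, and single libraries left out gave 1149 to 2990, with 1149 without Cpt2L-/- replicate 3, 1239 without Cpt2L-/- replicate 4 and 1418 without Cpt2L-/- Ppara KO replicate 2. The interaction gave 2396 to 3767 calls. The causes of these shifts were not tested, beyond the smaller number of libraries. RLE factors, no filter, DESeq2, limma and all 24 libraries gave 3557, 3156, 4315, 3078 and 4602 calls for the first comparison. With the replicate number as a block the counts were 2915, 2608 and 3307 for the 3 comparisons. Of 32 gene lists, 6 had fewer calls by over 1.5 times with the block and 1 had more: nuclear receptors (12 to 7), acute-phase genes (12 to 6), hepatocyte, cholangiocyte and adipocyte markers (2 to 1 each), lymphocyte markers (1 to 0) and, with more, erythroid markers (0 to 3). With the log2 threshold of 1, 12 of the 32 had fewer by over 1.5 times, among them peroxisomal genes (24 to 15), amino acid catabolism (24 to 9) and nuclear receptors (12 to 3). Deviations of same-numbered libraries correlated at −0.0964 to 0.103, and no number was closest to itself. The numbers were not treated as pairs in the main fits, but so few correlations cannot exclude a shared collection. Of 100 genes examined one by one, 92 to 100 kept their direction and side of the threshold under each alternative, the fewest without Ppara KO replicate 3, and 0 turned direction with a call. Besides the cases named in the report, calls were lost with no filter for Cd36, Pdk4, Fasn, Gstm1, Srxn1 and Cdkn1a, by limma for Cpt2, Cd36, Pdk4, Fasn and Gstm1, with the block for Cd36, Pdk4 and Cdkn1a, and with all 24 libraries for Cpt2. Genes of low count, such as Gldn in control livers, are limited by depth, and how reads shared by paralogs were counted is not known.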
